A study of Mus musculus with 6 samples.

Results

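The 32 genes described here are enzymes of glycolysis, transporters of glucose and lactate, and genes of the hypoxia response, measured by RNA sequencing in neutrophils sorted from mouse lung. They were listed by name, with earlier results of these data known, and all 32 were found among the 55487 genes of the deposited count table and had enough counts to be tested. They comprised 3 transporters, 8 enzymes from hexokinase to triose phosphate isomerase, 2 regulators of phosphofructokinase, 5 enzymes from there to pyruvate, 2 genes of pyruvate's fate, 3 genes of the oxygen sensor and 9 other targets of hypoxia-inducible factor (HIF). Neutrophils were sorted as Ly6G-positive cells from perfused lungs digested with liberase. Mutant mice carried the transgene S100A8-cre,-EGFP, called Mrp8-Cre, together with TGFbR2-fl/fl, the loxP-flanked (floxed) alleles of Tgfbr2, the gene of the type II TGF-beta receptor. Control mice, called wt, were Cre-negative littermates homozygous for the same floxed Tgfbr2, so both groups shared those alleles and only the mutants had Cre and EGFP. The floxed parent was strain B6;129-Tgfbr2tm1Karl/J and the transgenic parent was on a B6.Cg background, and there were 3 libraries in each group. The promoter of S100a8 (Mrp8) acts in myeloid cells, mainly in neutrophils, with the age of the mice not given in the sources used here. No label ties a library to a single mouse, so each p-value reflects only how these 6 libraries vary, which may be technical.

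Glycolysis splits glucose into pyruvate in the cytosol, and lactate dehydrogenase then turns pyruvate into lactate, which restores the cofactor that the pathway needs to go on. Neutrophils hold few mitochondria and draw most of their energy from this pathway. HIF is a transcription factor whose alpha subunit is marked for destruction by prolyl hydroxylases while oxygen is at hand. When oxygen is short the alpha subunit accumulates and HIF switches on many of the genes described here, and its protein level is set mainly by that destruction, so that Hif1a mRNA is not a measure of HIF activity.

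Library totals ran from 30403494 to 35906780 counts, and the 10 most abundant genes took 9.74 to 10.7% of them. Of the counts from 1 to 19, 70.8 to 72.9% were even numbers, so that 2 counts may stand for 1 sequenced fragment. Tgfbr2 itself was at 187 ± 15.4 CPM (counts scaled to library size; SD, n = 3) in mutant and 191 ± 8.74 CPM in wt libraries, and a count over the whole gene does not check the loss of its floxed part. All 10 neutrophil markers were detected, with a summed level of 15683 to 20999 CPM in mutant and 18434 to 19988 CPM in wt libraries. Among them Cxcr2 was at 1946 to 2136 CPM in mutant and 2475 to 2623 CPM in wt, and S100a8 at 966 to 1507 and 1687 to 1751 CPM. Both, singled out after their values were seen, were lower in every mutant library, like Pfkfb3, Ldha and Hif1a. For the other neutrophil markers the groups overlapped, as for Mmp9 at 3755 to 7261 CPM in mutant and 4191 to 4634 CPM in wt. The part of these markers in the results for Pfkfb3, Ldha and Hif1a was not tested. Markers of other lung cells were also present. The sum of 10 alveolar macrophage markers was 632 to 1285 CPM in mutant and 357 to 576 CPM in wt, of which Chil3, which neutrophils also express, was the most abundant (without it 260.2 to 286 and 195 to 258 CPM). That of 10 epithelial markers was 532 to 998 and 259 to 549.6 CPM, that of 10 fibroblast markers 2635 to 3846 and 2277 to 2662 CPM, and that of 10 endothelial markers 1401 to 1697 and 1548 to 1974 CPM. Monocyte and interstitial macrophage markers (10 of 10 detected) summed to 807 to 869.5 CPM in mutant and 879.9 to 914 CPM in wt, and dendritic cell markers (7 of 7) to 22.2 to 23.6 and 28.1 to 29.2 CPM. B and plasma cell markers (9 of 9) summed to 459 to 478 CPM in mutant and 312 to 519.5 CPM in wt libraries, and T and NK cell markers (10 of 10) to 25.7 to 33.5 and 22.6 to 38.6 CPM. Platelet markers summed to 5.75 to 12.7 CPM in mutant and 7.46 to 9.44 CPM in wt, with Gp1bb at 0. The part of these other cells in the results below was not tested, and in these bulk libraries fewer cells of a type and less RNA per cell cannot be told apart.

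None of the 32 genes passed the edgeR test of mutant against wt across all genes. The 4 with the smallest p-values, Pfkfb3, Ldha, Hif1a and Ndrg1, all had lower means in the mutant, at 0.666, 0.797, 0.719 and 0.795 of the wt mean. The log2 fold change (mutant over wt) was above 0 for 12 of the 32 and below 0 for 20, with a median of -0.03. Over all 15774 tested genes the median was 0.01, with 49.3% negative. The lactate exporter Slc16a3, Pkm and Aldoa were, in that order, the most abundant of the 32 per kilobase of exon in each of the 6 libraries.

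By edgeR's quasi-likelihood test, with Benjamini-Hochberg adjustment over all tested genes, 0 of the 32 had an adjusted p under 0.05, beside 1 of 15774 genes (0.00634%), and limma-voom also called 0 of the 32. DESeq2 called 1 of them, Pfkfb3, which was lower, and 0 that were higher, beside 0.469% of all genes called lower and 0.514% called higher. With no adjustment, edgeR's p was under 0.05 for 4 genes that were lower (12.5%) and 0 that were higher, beside 3.22% of all genes lower and 3.51% higher. The 3 mutant and 3 wt libraries did not overlap for 4 genes that were lower (12.5%; Pfkfb3, Ldha, Hif1a and Ankrd37) and 2 that were higher (6.25%; Pfkp and Adm), beside 6.21% and 6.82% of all genes. For 22 of the 32 the log2 fold change was smaller than 0.2 in size, and for 21 the 95% interval lay within 1.5-fold in both directions. To either side of the estimate that interval reached from 0.17 (Slc16a3) to 1.00 (Adm) on the log2 scale, so the data were far more precise for the abundant enzymes than for the rare HIF targets.

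**Figure D1:**
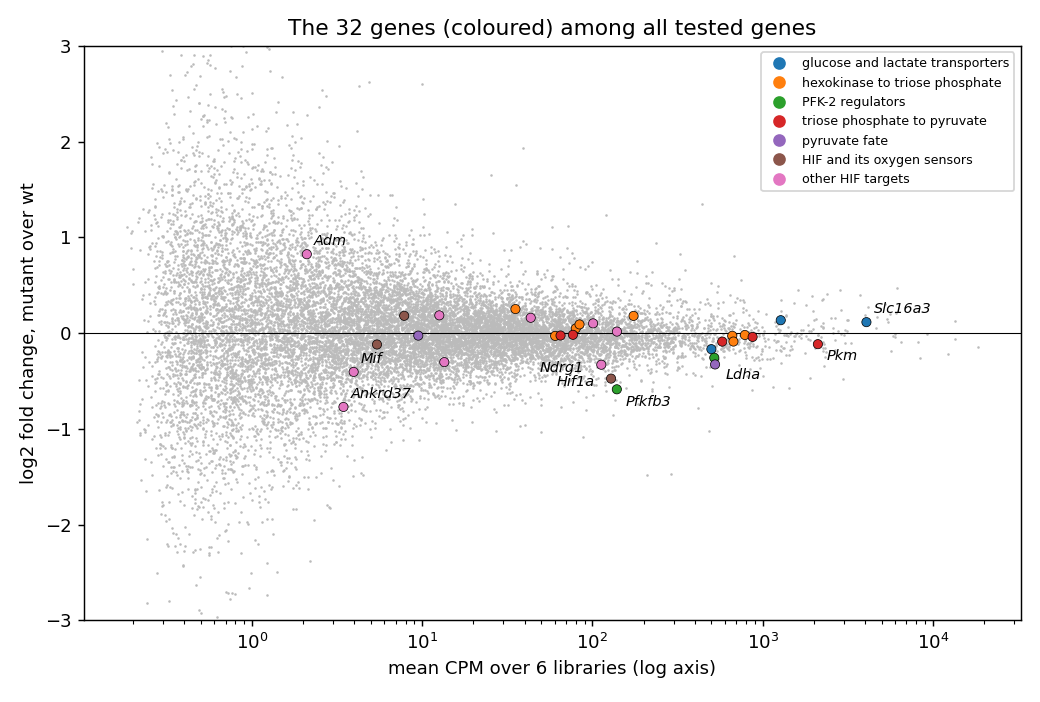
Log2 fold change of mutant over wt (vertical axis) against mean CPM over 6 libraries (horizontal log axis) for all tested genes in grey and the 32 genes coloured by role. Most of the abundant enzymes lie near 0, with Pfkfb3, Hif1a, Ldha and Ndrg1 below, and the 62 tested genes beyond a log2 fold change of 3 in size are not drawn.

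HIF acts by binding a short core motif in promoters and enhancers of its targets. For 29 of the 32 genes RefSeq (GRCm38.p6) gave a transcription start, in 40 entries, and the 250 bases before it were searched on both strands for ACGTG and, as the other form of the core, for GCGTG. A stretch CACGTG counts as 2 matches that overlap. At least 1 match was present in 26 of 29 genes (89.7%), beside 58.9% of the tested genes with an entry and 41.5% of all 27025 genes in the table. Counted by entry, the shares were 77.5% of the 40 entries, 53.0% for tested genes and 38.6% for all genes. Because the list was chosen to hold HIF targets, these shares describe it and test nothing. A match describes letters in this window and is no evidence that HIF was bound. The windows below belong to 5 of the 6 genes whose groups did not overlap, a choice made after their values were seen, which left out Pfkp, the gene of the 6 with the smallest fold change. They are printed 5′ to 3′ on the gene's strand with the matches in capitals (those on the opposite strand as their reverse complement), and the bases next to the start that lie in an annotated exon, 11 for Pfkfb3 and 17 for Ankrd37, were left off. They lie at chr2:11502102-11502340 (minus strand, the start of Pfkfb3 with the most matches), chr7:46845554-46845803 and chr7:46846832-46847081 (plus strand, both starts of Ldha), chr12:73907617-73907866 (plus, Hif1a), chr8:45999868-46000100 (minus, Ankrd37) and chr7:110627407-110627656 (plus, Adm).
Pfkfb3: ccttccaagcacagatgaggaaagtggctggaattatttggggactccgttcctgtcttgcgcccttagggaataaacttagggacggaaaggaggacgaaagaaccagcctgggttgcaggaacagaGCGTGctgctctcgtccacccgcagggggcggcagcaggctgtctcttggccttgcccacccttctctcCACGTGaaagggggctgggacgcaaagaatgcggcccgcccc
Ldha, first start: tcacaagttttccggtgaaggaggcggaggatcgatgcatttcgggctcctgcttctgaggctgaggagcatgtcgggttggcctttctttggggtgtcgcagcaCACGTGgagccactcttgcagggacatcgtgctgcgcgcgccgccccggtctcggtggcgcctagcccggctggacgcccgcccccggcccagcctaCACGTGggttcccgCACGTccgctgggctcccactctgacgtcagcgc
Ldha, second start: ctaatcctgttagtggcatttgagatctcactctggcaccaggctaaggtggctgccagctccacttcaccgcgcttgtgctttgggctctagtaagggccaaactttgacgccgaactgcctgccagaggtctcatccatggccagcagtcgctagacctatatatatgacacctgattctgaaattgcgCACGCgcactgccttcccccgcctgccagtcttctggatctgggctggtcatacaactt
Hif1a: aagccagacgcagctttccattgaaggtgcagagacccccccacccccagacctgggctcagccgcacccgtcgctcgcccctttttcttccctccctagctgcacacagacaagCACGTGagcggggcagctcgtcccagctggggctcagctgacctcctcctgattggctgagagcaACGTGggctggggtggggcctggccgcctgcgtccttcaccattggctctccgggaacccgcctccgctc
Ankrd37: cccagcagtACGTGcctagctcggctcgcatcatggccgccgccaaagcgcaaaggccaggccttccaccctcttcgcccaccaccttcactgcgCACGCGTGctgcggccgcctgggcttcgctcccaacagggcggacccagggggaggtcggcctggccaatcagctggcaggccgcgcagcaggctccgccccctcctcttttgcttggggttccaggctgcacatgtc
Adm: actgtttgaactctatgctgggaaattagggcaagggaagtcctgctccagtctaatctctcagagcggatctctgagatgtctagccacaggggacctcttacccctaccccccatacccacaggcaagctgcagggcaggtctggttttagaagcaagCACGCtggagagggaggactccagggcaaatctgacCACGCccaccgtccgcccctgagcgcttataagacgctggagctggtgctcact
The first start of Ldha had 5 matches, the most in these windows, with CACGTG present at 2 places. For that start and for Hif1a, the bases just after the start were not found near the beginning of a GENCODE M21 transcript of the gene. For the other printed windows they were found. Pfkfb3 had 3 matches at the printed start and Hif1a 3, each with 1 CACGTG. The other start of Pfkfb3, not printed, had 1 match. Ankrd37 had 4, including 1 in the bases left off, and Adm had 2. Genes with matches did not share a direction, since Adm was the highest of these genes in mutant relative to wt and Ankrd37 the lowest.

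Levels were compared between genes as CPM per kilobase of summed exon length, averaged over the 6 libraries. Slc16a3, which encodes the lactate exporter MCT4, was the highest at 766 ± 47.4 (SD, n = 6), above 99.7% of all tested genes. Pkm, pyruvate kinase, followed at 423 ± 30.4, and Aldoa, the aldolase of muscle and most other tissues, at 270.5 ± 9.60. Hk3, a hexokinase known from myeloid cells, stood at 180.2 ± 22.9, Slc2a3 (GLUT3) at 176 ± 20.6, Eno1 at 162 ± 17.0, Ldha at 159 ± 21.2, Slc2a1 (GLUT1) at 143 ± 11.8 and Gapdh at 140.2 ± 20.8 CPM per kilobase. From Hk3 to Gapdh each gene differed from the next by less than the larger of their SDs. At the low end were Pdk1 at 1.22 ± 0.107, Adm at 1.30 ± 0.476 and Egln1 at 1.51 ± 0.628, and Pdk1 still stood above 40.9% of all tested genes. The summed exon length pools all annotated exons. On the length of the principal transcript the first 3 kept their order (940.1, 869 and 521). Eno1 (431), Gapdh (408), Slc2a3 (323), Ldha (298) and Gpi1 (234) moved ahead of Hk3 (206), which fell from rank 4 to rank 9.

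**Figure D2:**
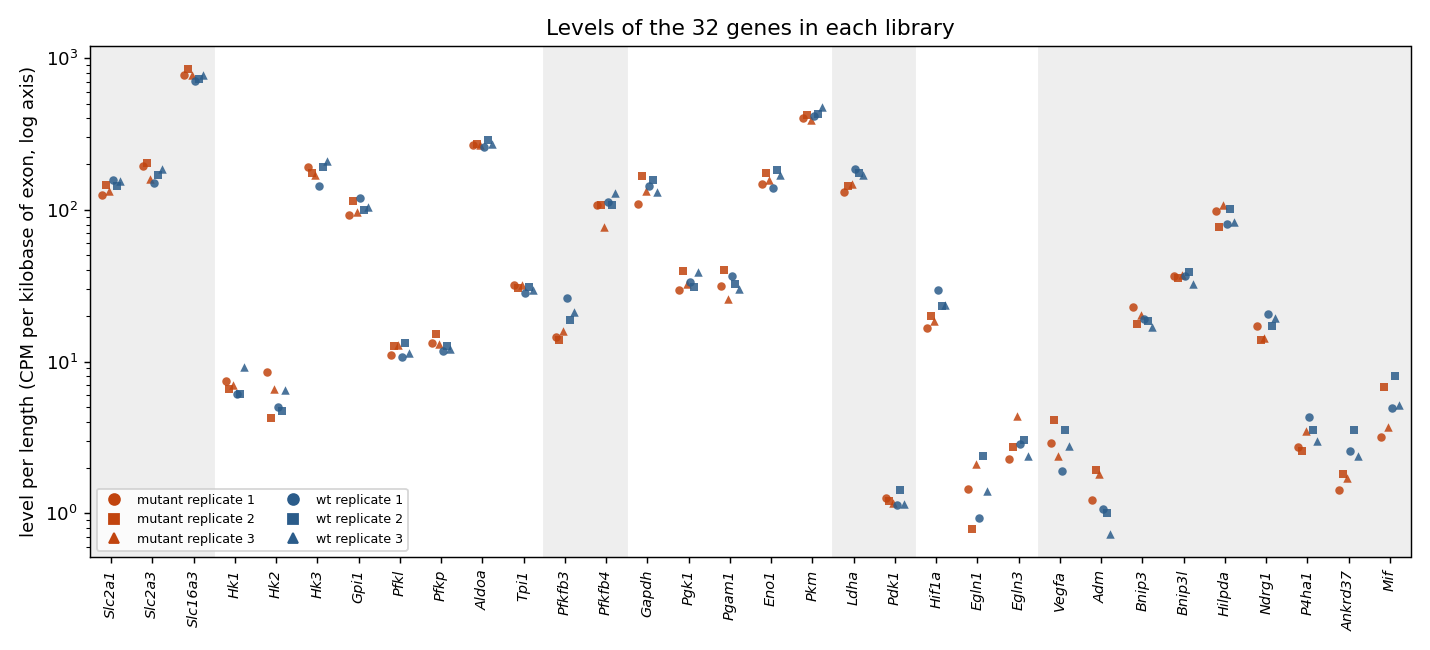
Level of each of the 32 genes in each library, in CPM per kilobase of exon on a log axis, with mutant and wt libraries in different colours. Slc16a3 at 766 and Pdk1 at 1.22 mark the ends of the range, and the libraries of both groups overlap for all but 6 of the genes.

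Some of these genes share sequence with other genes, mostly processed pseudogenes, and a read in the shared part may be counted for either or for none. Of all 100-base windows along the principal transcript, 78.1% were shared in Gapdh, with 86 other genes of which 82 are pseudogenes. The share was 67.0% in Pgk1, 59.0% in Eno1, 47.0% in Mif, 39.7% in Pgam1 and 33.5% in Bnip3, and their levels and differences are therefore uncertain. It was 0 in Pfkfb3, 1.32% in Ldha and 4.09% in Hif1a. Libraries made with SMART-Seq v2 do not mark strand, so reads from overlapping genes on opposite strands cannot be told apart.

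The transporters were abundant and close between groups. Slc2a1, the glucose carrier that HIF induces in many cells, was at 442, 507 and 465 CPM in mutant replicates 1 to 3 and at 548, 500.4 and 539.9 CPM in wt replicates 1 to 3. Mutant replicate 2 lay above wt replicate 2, so the groups overlapped. The log2 fold change was -0.17 ± 0.09 (SE; edgeR adjusted p = 0.821). Slc2a3, a glucose carrier of high affinity, was at 1338 ± 167 CPM in mutant and 1219 ± 129.6 CPM in wt (SD, n = 3), a log2 fold change of 0.13. Slc16a3 was at 4098, 4493 and 4119 CPM in mutant and at 3769, 3861 and 4111 CPM in wt libraries. Its 95% interval, -0.05 to 0.28 on the log2 scale, was the narrowest of the 32.

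The enzymes from hexokinase to triose phosphate isomerase showed no call, with 4 of 8 positive and 4 negative. Hexokinases trap glucose in the cell as glucose 6-phosphate. Hk3 was at 657 ± 42.1 CPM in mutant and 670.0 ± 126 CPM in wt, Hk1 at 59.8 ± 3.33 and 61.1 ± 15.2 CPM, and Hk2, the hexokinase most often named as a HIF target, at 38.4 ± 12.9 and 32.3 ± 5.54 CPM. Hk2 varied most within the mutant, from 25.2 CPM in replicate 2 to 50.9 CPM in replicate 1. Gpi1, which isomerises that sugar phosphate, was at 653 ± 74.4 CPM in mutant and 695 ± 66.0 CPM in wt. Aldoa, which splits the sugar into its 2 triose phosphates, was the steadiest of the 32, its highest library 1.11 times its lowest, at 782 ± 8.70 CPM in mutant and 793 ± 42.3 CPM in wt. Tpi1, which interconverts those triose phosphates, was at 86.7 ± 2.41 and 81.4 ± 3.90 CPM.

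Phosphofructokinase makes the committed step of glycolysis. The platelet-type subunit Pfkp was at 177, 204 and 175 CPM in mutant and 158, 170.4 and 162 CPM in wt libraries. Every mutant library was higher than every wt library, yet the difference was small, with a log2 fold change of 0.18 ± 0.11 (SE; edgeR adjusted p = 0.844). Pfkp overlaps Pitrm1 on the opposite strand over 748 exon bases, and Pitrm1 was at 7.29 CPM. The liver-type subunit Pfkl was at 81.3 ± 6.50 CPM in mutant and 78.6 ± 9.12 CPM in wt.

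Among the 32, the gene above 10 CPM with the largest log2 fold change was a regulator of phosphofructokinase. Pfkfb3 (ENSMUSG00000026773.19, chr2:11471433-11554077, minus strand, GRCm38) makes fructose 2,6-bisphosphate, the strongest activator of that enzyme, and is a HIF target. It was at 109, 105 and 119.8 CPM in mutant replicates 1 to 3 and at 199, 142 and 161 CPM in wt replicates 1 to 3. All mutant libraries were below all wt libraries, with wt replicate 1 the highest. The means were 111 ± 7.68 CPM in mutant and 167 ± 28.9 CPM in wt, a log2 fold change of -0.59 ± 0.14 (SE; 95% interval -0.89 to -0.28), and edgeR gave an unadjusted p of 0.00156 and an adjusted p of 0.302. The call turned on the method. DESeq2 gave an adjusted p of 0.00852 and edgeR with no filter on low counts 0.0495, and over all 13 alternatives the adjusted p ran up to 0.725. Leaving out 1 library at a time gave log2 fold changes from -0.69 to -0.44. Pfkfb4, the other listed regulator of phosphofructokinase, was far more abundant, at 521, 524 and 378 CPM in mutant and 551, 523 and 626 CPM in wt. Its groups overlapped and mutant replicate 3 stood below the rest, with a log2 fold change of -0.26 ± 0.14 (SE; edgeR adjusted p = 0.804) that was -0.12 without that library.

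**Figure D3:**
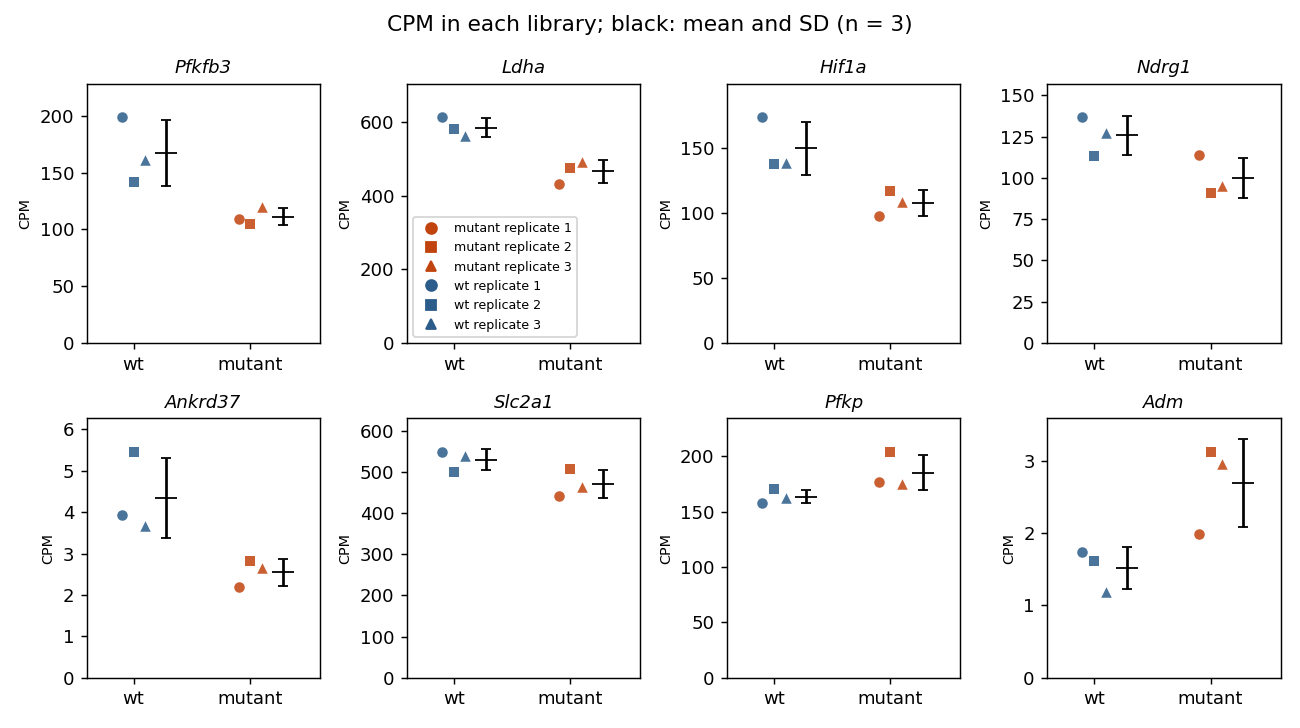
CPM in each library for 8 of the 32 genes, with coloured symbols for libraries and black lines for the mean and SD of each group (n = 3), each panel on its own axis from 0. For Pfkfb3 the mutant libraries lie between 105 and 119.8 CPM and the wt libraries between 142 and 199 CPM.

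From glyceraldehyde 3-phosphate to pyruvate all 5 enzymes had slightly negative log2 fold changes, and none passed the test. Gapdh was at 562 ± 120.4 CPM in mutant and 597 ± 55.0 CPM in wt, Pgk1 (phosphoglycerate kinase) at 76.4 ± 11.4 and 77.4 ± 9.61 CPM, and Pgam1 (phosphoglycerate mutase) at 64.5 ± 14.0 and 65.6 ± 6.54 CPM. Eno1, enolase, was at 862 ± 75.3 and 886 ± 122 CPM. Pkm, which makes pyruvate, was at 2022, 2121 and 1943 CPM in mutant and 2069.7, 2136 and 2388 CPM in wt, a log2 fold change of -0.12. The 4 enzymes other than Pkm turned sign when 1 library was left out, so no direction can be read for them.

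At the fate of pyruvate, Ldha had a lower mean in the mutant without passing the test, and the means of Pdk1 were closer than its spread. Ldha (ENSMUSG00000063229.15, chr7:46841475-46855627, plus strand, GRCm38) encodes the subunit of lactate dehydrogenase that favours lactate. It was at 431, 475 and 493 CPM in mutant and at 613, 581 and 562 CPM in wt libraries. The groups did not overlap, and the gap between the highest mutant and the lowest wt library was larger than either group's SD (32.1 and 25.8 CPM). The log2 fold change was -0.33 ± 0.09 (SE; 95% interval -0.54 to -0.12), with an unadjusted p of 0.00553 and an adjusted p of 0.444 by edgeR and an adjusted p of 0.0759 by DESeq2. Over the 13 alternatives the adjusted p of Ldha ran from 0.0759 to 0.767. Pdk1, a pyruvate dehydrogenase kinase, was at 9.41 ± 0.343 CPM in mutant and 9.58 ± 1.26 CPM in wt.

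Of the HIF alpha subunit and its oxygen sensors, Hif1a alone had groups that did not overlap. Hif1a (ENSMUSG00000021109.13, chr12:73901375-73947530, plus strand, GRCm38) encodes the subunit that oxygen controls. It was at 97.5, 117 and 109 CPM in mutant and 174, 137 and 139 CPM in wt libraries. As for Pfkfb3, Ldha and Ndrg1, wt replicate 1 was the highest. The log2 fold change was -0.48 ± 0.13 (SE; 95% interval -0.76 to -0.19), with an unadjusted p of 0.00432, an adjusted p of 0.406 by edgeR and an adjusted p of 0.0540 by DESeq2. Over the 13 alternatives the adjusted p of Hif1a ran from 0.0540 to 0.767. Leaving out 1 library at a time gave log2 fold changes from -0.54 to -0.36, the smallest in size without wt replicate 1. Of the prolyl hydroxylases that mark it, the 2 on the list were low, Egln1 at 5.20 ± 2.36 CPM in mutant and 5.66 ± 2.65 CPM in wt and Egln3, itself a HIF target, at 8.33 ± 2.95 and 7.35 ± 0.903 CPM. Egln1 had the widest spread of the 32, its highest library 3.01 times its lowest.

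**Figure D4:**
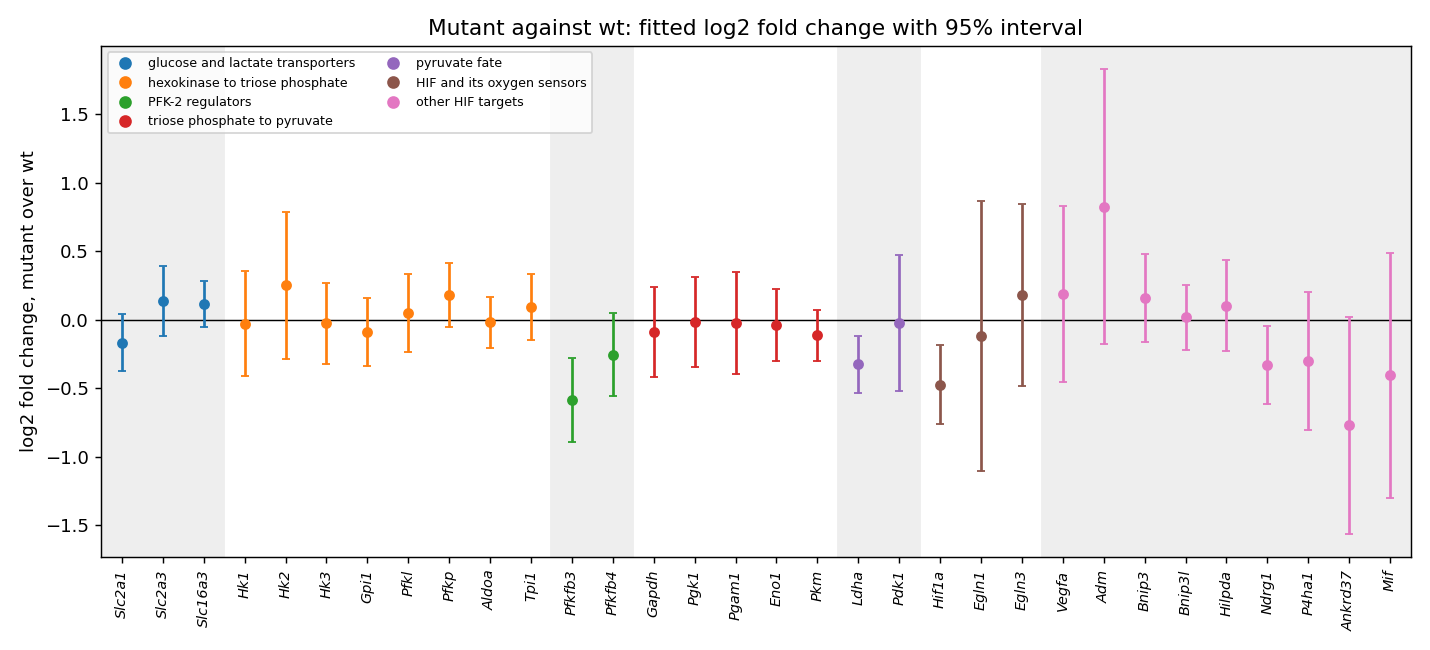
Log2 fold change of mutant over wt for the 32 genes, ordered by role, with bars for the 95% interval of the edgeR fit. The intervals of Pfkfb3 (-0.89 to -0.28), Hif1a (-0.76 to -0.19), Ldha (-0.54 to -0.12) and Ndrg1 (-0.62 to -0.05) do not include 0, and none of these genes has an adjusted p under 0.05.

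The other HIF targets did not move in 1 direction, with 5 of 9 positive and 4 negative and no call. Ndrg1, a gene of stress and hypoxia responses, was at 114, 91.1 and 94.9 CPM in mutant and 137, 113 and 127 CPM in wt. Mutant replicate 1 exceeded wt replicate 2, and the log2 fold change was -0.33 ± 0.13 (SE; edgeR unadjusted p = 0.0272, adjusted p = 0.636). Ankrd37 (ENSMUSG00000050914.16, chr8:45996902-46005707, minus strand, GRCm38) was at 2.18, 2.81 and 2.65 CPM in mutant and 3.94, 5.45 and 3.66 CPM in wt. The groups did not overlap, with a log2 fold change of -0.77 ± 0.36 (SE; edgeR adjusted p = 0.759). Ankrd37 shares 57 exon bases with Ufsp2 on the opposite strand, which stood at 25.8 CPM, so part of its few reads may belong to Ufsp2. Adm (ENSMUSG00000030790.15, chr7:110627661-110629820, plus strand, GRCm38), the peptide adrenomedullin, went the other way, at 1.99, 3.12 and 2.95 CPM in mutant and 1.74, 1.62 and 1.19 CPM in wt. The groups did not overlap, but Adm rested on 400 counts over all 6 libraries and its 95% interval, -0.18 to 1.83 on the log2 scale, was the widest of the 32 (edgeR adjusted p = 0.810).

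The mitophagy receptors were steady, Bnip3 at 45.9 ± 5.96 CPM in mutant and 41.1 ± 2.43 CPM in wt and Bnip3l at 140.2 ± 2.54 and 139 ± 11.8 CPM. Hilpda, which blocks the breakdown of lipid droplets, was at 105 ± 17.3 and 97.4 ± 12.3 CPM. Vegfa, the endothelial growth factor, was at 13.4 ± 3.87 and 11.8 ± 3.54 CPM. P4ha1, a hydroxylase of collagen, was at 12.1 ± 2.03 and 14.9 ± 2.78 CPM, and the cytokine Mif at 3.41 ± 1.46 and 4.51 ± 1.27 CPM. None of these 6 had groups that stood apart.

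The libraries took different places over the list. Mutant replicate 1 was the lowest library for 9 genes and the highest for 2. Mutant replicate 2 was the highest library for 8 genes and wt replicate 2 for 8, while wt replicate 1 was the highest for 7 and the lowest for 11. Wt replicate 2 was the lowest for 0 of the 32, and without it the median log2 fold change of the list was 0.02 in place of -0.03, with 15 genes below 0 in place of 20. The highest library was less than 1.5 times the lowest for 17 of the 32 genes and more than 2 times for 6. Mutant replicate 3, with the highest sums of alveolar macrophage, epithelial and fibroblast markers, was the highest library for 3 genes and the lowest for 3.

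Several steps can be run by isoenzymes from different genes, and their shares were taken from CPM per kilobase of exon. Hk3 made up 93.3% of the 3 hexokinases (range over 6 libraries 92.3 to 94.6%), Pfkfb4 80.7 to 88.4% of Pfkfb2, Pfkfb3 and Pfkfb4, Eno1 97.6% of the enolases, Slc16a3 99.95% of Slc16a1 and Slc16a3, and Egln2, an oxygen sensor outside the list, 86.0% of the prolyl hydroxylases. Pfkp (49.1%) and Pfkl (45.1%) shared the phosphofructokinase pool, a balance that depends on the length used, since the principal transcripts gave 64.4% and 32.8%. Of the 3 glucose carriers compared, Slc2a6 held 53.5%, Slc2a3 25.7% and Slc2a1 20.8%. Slc2a6 also led on principal transcript length (53.7%), but in shares of raw counts Slc2a3 led with 43.1% against 39.9% for Slc2a6. Between groups the leading isoenzyme was compared in 12 families by a two-sided exact permutation test, for which 0.1 is the smallest p that 3 against 3 libraries can give. This was reached in 3 families, Ldha, Aldoa and Pdk3, each with an adjusted p of 0.4. Ldha made up 96.8, 97.3 and 95.9% of Ldha and Ldhb in mutant and 98.6, 98.2 and 98.1% in wt libraries, so Ldhb took 3.31% in mutant and 1.68% in wt. Aldoa made up 99.6 ± 0.104% of the aldolases in mutant and 99.7 ± 0.0547% in wt (SD, n = 3). Pdk3 made up 47.6 ± 6.32% of the pyruvate dehydrogenase kinases in mutant and 54.5 ± 2.46% in wt (SD, n = 3), and mutant replicate 3, at 40.3%, stood apart. The difference of -6.90 points was -3.25 without that library and -4.39 in shares of raw counts. Pdk3 itself was at 14.9 ± 1.33 CPM in mutant and 14.6 ± 4.45 CPM in wt. Pdk2, of the same family, was at 15.2 ± 4.99 CPM in mutant and 9.71 ± 3.58 CPM in wt. Slc2a1, singled out after its values were seen, took 18.5 to 19.7% of its family in mutant and 21.1 to 24.0% in wt libraries.

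**Figure D5:**
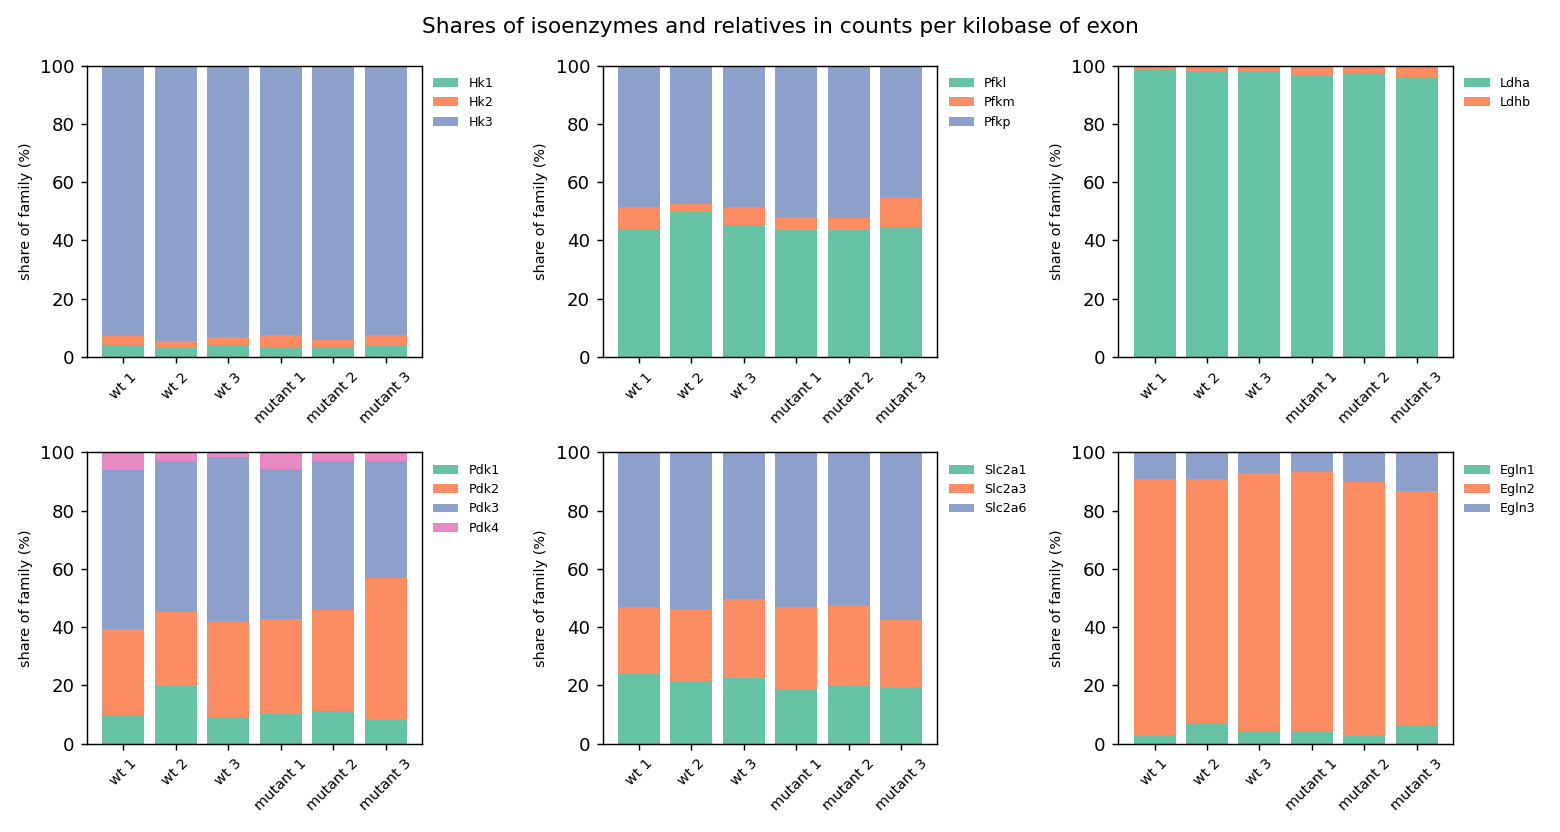
Shares of isoenzymes or related carriers in 6 families (percent of summed counts per kilobase of exon) for each library, as stacked bars from 0 to 100%. Hk3 fills 92.3 to 94.6% of the hexokinase bars, and Ldhb is a thin band that is wider in the 3 mutant libraries (mean 3.31%) than in the wt libraries (1.68%).

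Genes around the pathway that are not on the list gave no call by edgeR, DESeq2 or limma-voom. Of 27 other glycolysis and pyruvate genes, 20 were tested, 14 positive and 6 negative, with 1 of the 20 at an unadjusted p under 0.05 and higher, near the 3.51% of all genes. That gene was Ldhb, the lactate dehydrogenase subunit of heart, at 6.74, 6.17 and 9.90 CPM in mutant and 4.01, 4.95 and 5.19 CPM in wt, with groups that did not overlap (log2 fold change 0.69, edgeR adjusted p = 0.710). Aldoc, a minor aldolase, was next at 3.83 ± 0.838 CPM in mutant and 2.22 ± 0.321 CPM in wt. In mutant replicate 3 Ldhb was the highest, as were the marker sums of alveolar macrophages, epithelium and fibroblasts, whose part in it was not tested. The 7 pentose phosphate genes, 2 positive and 5 negative, were led by Rpe (24.4 ± 3.60 CPM in mutant, 20.2 ± 3.62 CPM in wt) and Rpia (0.807 ± 0.597 and 1.53 ± 0.323 CPM), none at an unadjusted p under 0.05.

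Of 10 glycogen genes, which store and release glucose within the cell, 8 were positive and 2 negative, and 0 had an unadjusted p under 0.05. Pygl, the phosphorylase that frees glucose from glycogen, was at 1354 ± 143 CPM in mutant and 1534 ± 83.6 CPM in wt, and the branching enzyme Gbe1 at 39.0 ± 2.78 and 32.8 ± 4.58 CPM. Of 7 gluconeogenesis genes 4 were tested and all 4 were positive, with 0 at an unadjusted p under 0.05. Pck2 was at 15.7 ± 3.12 and 13.6 ± 1.49 CPM and Pcx at 3.27 ± 1.09 and 2.52 ± 1.52 CPM.

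Of 11 regulators of HIF, 9 were tested, 4 positive and 5 negative, and 0 had an unadjusted p under 0.05. Elob, part of the complex that tags HIF for destruction, was at 7.85 ± 3.42 CPM in mutant and 11.3 ± 1.95 CPM in wt. Epas1, the HIF-2 alpha subunit, known from endothelium among other cells, was at 731 ± 37.0 and 836 ± 163 CPM. Of 38 further HIF target genes 33 were tested, 18 positive and 15 negative. At an unadjusted p under 0.05, 2 were higher (Lox and Angpt2) and 3 lower (Hmox1, Kdm4b and Ddit4) in mutant, beside 3.51% of all genes higher and 3.22% lower. Lox, an enzyme that crosslinks collagen, was at 6.12 ± 2.68 CPM in mutant and 2.06 ± 1.02 CPM in wt, with groups that did not overlap (log2 fold change 1.57 ± 0.46 SE, edgeR adjusted p = 0.467). Fibroblasts are a known source of Lox, and the part of the higher fibroblast marker sums in it was not tested. Hmox1, heme oxygenase, was at 73.7, 74.2 and 78.3 CPM in mutant and 96.6, 92.4 and 98.1 CPM in wt (log2 fold change -0.34 ± 0.11 SE, edgeR adjusted p = 0.498). Gys1 and Pfkfb1 stand on 2 of these further lists.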

How the data were processed

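The authors deposited 1 table of read counts per gene, raw whole numbers, made with STAR and featureCounts on GRCm38 per the submitters' processing notes. Their versions, the annotation release and whether strand was used: not given in the sources used here. Libraries came from SMART-Seq v2 and Nextera XT, which copy whole transcripts, so a count grows with transcript length, and without molecular identifiers it includes PCR copies. The deposited file also gives each gene's summed exon length, which was used to compare levels between genes. Symbols came from GENCODE M21: 55094 of 55487 identifiers matched exactly, 300 without their version and 93 not at all. Aldoa has 2 identifiers, and the minor one (24 counts in all) was not used.

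From the counts, CPM were computed on library totals scaled by TMM factors (0.972 to 1.03). The test was edgeR's quasi-likelihood test (edgeR 4.0.16, limma 3.58.1, R 4.3.3) on the 15774 genes passing filterByExpr, with Benjamini-Hochberg adjustment over all of them and a threshold of 0.05. DESeq2 1.42.0, limma-voom, other scalings and filters, and fits leaving out each library were run as alternatives. A count of 3, the limit that a count of 0 allows if each count is its own fragment, equals 0.0829 to 0.102 CPM. Where 2 counts stand for 1 fragment, the limit is higher. The pipeline was tested on simulated counts for mutant against wt over 15774 genes, with 50 changed at each of 1.5-, 2-, 4- and 8-fold. Over all changed genes it recovered 22% at a 1.5-fold, 34% at a 2-fold, 64% at a 4-fold and 84% at an 8-fold change. Of those averaging 10 CPM or more it recovered 41.7%, 73.7%, 100% and 100%, with 6 false calls among 15574 unchanged genes. So many changed genes ease the Benjamini-Hochberg adjustment, whereas the main test called 1 gene. Recovery in the deposited data may therefore be lower than these shares. Every listed gene is named, and of each further list the called genes or, with none called, the 2 with the smallest p; Kdm4b, Ddit4, Angpt2, and genes named for isoenzyme shares, were named after their values were seen. The members and lists were chosen with earlier results of these data known. One further list of cell markers is not reported here.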

Additional observations from a re-analysis of the deposited data

How the results depend on the processing

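Of the 32 genes, 0 were called by edgeR, and 0 under 11 of the 13 alternatives; with no filter on low counts the number was 1 and with DESeq2 it was 1, in both cases Pfkfb3, beside 70 and 155 calls over all genes, against 1 in the main test. The median log2 fold change of the 32 moved between -0.07 and 0.02 and was positive only without wt replicate 2. No gene turned sign under the 7 other settings of scaling, filter and test, and 17 kept their sign under every alternative that tested them. The other 15 turned sign when 1 library was left out, with log2 fold changes in those 6 fits as follows: Hk1 from -0.13 to 0.19, Hk2 from -0.0043 to 0.47, Hk3 from -0.17 to 0.085, Pfkl from -0.014 to 0.15, Aldoa from -0.057 to 0.020, Gapdh from -0.27 to 0.051, Pgk1 from -0.15 to 0.084, Pgam1 from -0.21 to 0.11, Eno1 from -0.14 to 0.047, Pdk1 from -0.085 to 0.087, Egln1 from -0.49 to 0.31, Egln3 from -0.14 to 0.37, Vegfa from -0.069 to 0.41, Bnip3l from -0.049 to 0.072 and Hilpda from -0.0056 to 0.22. The Hk3 share of the hexokinases, -0.48 percentage points in mutant minus wt, ranged from -1.05 to 0.090 and turned sign without wt replicate 2. The Egln2 share, -1.31 points, ranged from -2.97 to 1.13 and turned sign without mutant replicate 3. In shares of raw counts the Ldha difference was -0.79 points, against -1.63 per kilobase. The cause of these turns was not tested. Shares on the principal transcript length and the marker sum without Chil3 were added after seeing the data. No paired analysis was possible because the labels give no replicate numbers, and those used here only name libraries in accession order. With 3 libraries a group, fewer 1.5-fold than 2-fold changes were recovered in simulated counts, and Adm, Ankrd37, Mif and the Egln genes rest on few counts.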
